A study of Gasterosteus aculeatus with 53 samples.

Results

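The comparison described here set the whole brains of Paxton benthic females courted by a conspecific male (5 libraries) against those of Paxton benthic females kept with a conspecific female as a social control (6 libraries), 11 of the 53 libraries of the study. They were chosen by the population and treatment in the sample labels. Threespine stickleback (Gasterosteus aculeatus) were wild fish brought to the laboratory from the lakes Paxton and Priest, and each library came from the brain of 1 female. The females were Paxton benthic, Paxton limnetic or Priest limnetic, where benthic fish feed on the lake bottom and limnetic fish in open water. Each met a male of her own species and lake (conspecific), a male of the other species of her lake (heterospecific) or, as the social control, another female of her own kind from the home aquarium. All carried ripe eggs, none was a laboratory strain or carried an engineered allele, and age was not given.

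The females of the conspecific group were those of trials 34, 43, 64, 67 and 88, and those of the social control were of trials 39, 82, 84, 87, 89 and 91. A sixth library labelled Paxton benthic with a conspecific male, that of trial 83, was left out because the study took it to have been swapped with the Priest limnetic library of trial 9. Libraries are named here by the trial number in their labels. Whether these numbers follow the dates of the encounters was not given in the sources used here. Early and late below refer to the number only. Brains were taken at the end of the encounter, after a fixed maximum time or at spawning if that came first, and the time of each fish was not given in the sources used here. Courting males were reproductive and met the female in their nesting aquarium, while the stimulus female of the control was not reproductive. Whether the control aquarium held a nest was not given in the sources used here. The sex and reproductive state of the stimulus fish, its courtship and whether it came from the home aquarium of the female all differed between the treatments together. Their parts in a difference, and that of a nest, cannot be told apart.

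In stickleback courtship a male dances towards a ripe female, leads her to his nest and shows her its entrance, and she inspects it before she spawns or leaves. Females of the benthic and limnetic species weigh male size, colour and behaviour differently, and this choice helps to keep the species apart. Brain RNA taken within minutes of such a meeting holds both the stable expression of the fish and any transcripts that the meeting has begun to raise or lower, and whole-brain RNA averages over many cell types and regions. A lower level in whole brain can come from fewer cells of a type or from less RNA per cell, and these cannot be told apart here.

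Total counts ranged from 29537339 to 43213380 in the conspecific libraries (median 38898893) and from 35800293 to 43720050 in the social controls (median 38812492). The lowest total was that of the conspecific female of trial 43. Of the 22456 Ensembl identifiers in the table, 21798 had a count in any of the 53 libraries, and 20011 passed the filter on low counts and were tested. The 25 pairs of libraries within the 2 groups each differed by more than sampling noise, with chi-square values of 21.6 to 129 per degree of freedom, so none counted as a repeat of another. The table paired 0 identifiers with a gene symbol. Lists of courtship pathways, immediate early genes and cell type markers could therefore not be applied, whole-brain identity was not checked against markers, and no function is given for the genes below.

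The question of this comparison was whether the brain of a benthic female differs after courtship by a male she could mate with from that of a female in female company. Expression was compared with edgeR's quasi-likelihood test on 51 libraries, fitted with 1 mean per population-by-treatment group (9 in all), and genes were called at a Benjamini-Hochberg adjusted p under 0.1, the threshold of the study. Each library is a separate fish, so the tests measure the spread between fish. With a conspecific male, 0 genes were called higher and 2 lower, 0.00999% of the genes tested. The third smallest adjusted p in this fit was 0.322, and other fits, given below, called other numbers of genes.

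The gene ENSGACG00000011829 had 23.2, 23.6, 23.5, 23.7 and 21.4 CPM (counts scaled to a common library size by TMM, the trimmed mean of M values) in the conspecific females of trials 34, 43, 64, 67 and 88. It had 30, 31.6, 31.2, 40.6, 30.6 and 39.3 CPM in the social controls of trials 39, 82, 84, 87, 89 and 91. The groups did not overlap. The conspecific females lay within a narrow band, while 2 of the social controls, those of trials 87 and 91, stood above the other controls. The mean was 23.1 ± 0.942 CPM (SD, n = 5) with a conspecific male, against 33.9 ± 4.75 CPM (SD, n = 6) in social controls, a log2 fold change of -0.55 (standard error 0.1, edgeR adjusted p = 0.0126). These values rested on 699 to 1020 counts per library in the conspecific group and 1099 to 1571 in the social control.

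The gene ENSGACG00000019171 had 45, 50.3, 43.2, 48 and 48.6 CPM in the conspecific females and 61, 66, 66.7, 53.6, 71.5 and 67 CPM in the social controls, both in the order of trials above. Here too every conspecific value lay below every control value, with the control of trial 87 nearest to the conspecific range. The mean was 47 ± 2.88 CPM (SD, n = 5) with a conspecific male, against 64.3 ± 6.2 CPM (SD, n = 6) in social controls, a log2 fold change of -0.45 (standard error 0.08, edgeR adjusted p = 0.0167). The control of trial 87 was thus the highest of its group for ENSGACG00000011829 and the lowest for ENSGACG00000019171.

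Levels in the other groups placed these genes differently. For ENSGACG00000011829 the limnetic groups had means from 22.6 ± 2.73 CPM (SD, n = 6, Paxton limnetic social control) to 25.8 ± 1.55 CPM (SD, n = 6, Priest limnetic social control). The benthic conspecific mean lay within that range and the benthic social control mean above it. For ENSGACG00000019171 the limnetic means ran from 42.6 ± 1.61 CPM (SD, n = 6, Paxton limnetic with a conspecific male) to 46.3 ± 4.91 CPM (SD, n = 5, Priest limnetic with a conspecific male). The benthic conspecific mean was just above these and the benthic social control mean was the highest of the 9 groups.

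In benthic females that met a heterospecific male, ENSGACG00000011829 had 24.6, 32.6, 30.2, 39.4 and 28.8 CPM in trials 14, 31, 77, 85 and 90. This range reached from near the conspecific band into that of the social control. Its log2 fold change with a heterospecific male over the same social controls was -0.12 (95% interval -0.31 to 0.07, edgeR adjusted p = 0.998). For ENSGACG00000019171 the heterospecific females had 40, 47.9, 51.8, 51.2 and 62.7 CPM, of which the first 4 lay below all social controls. Its log2 fold change over the same controls was -0.34 (95% interval -0.51 to -0.18, edgeR adjusted p = 0.198). The controls are shared with the conspecific comparison, so these values are not independent of it. Set directly against heterospecific males, conspecific males gave log2 fold changes of -0.43 (edgeR adjusted p = 0.328) for ENSGACG00000011829 and -0.11 (edgeR adjusted p = 0.705) for ENSGACG00000019171, neither of which passed.

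The limnetic females had the same treatments, in libraries that entered neither benthic group mean but shared in the estimate of the spread. For ENSGACG00000011829, Paxton limnetic females had 22.9 ± 1.44 CPM (SD, n = 6) with a conspecific male, against 22.6 ± 2.73 CPM (SD, n = 6) in social controls, a log2 fold change of 0.02 (95% interval -0.17 to 0.2). Priest limnetic females had 23.9 ± 2.54 CPM (SD, n = 5) with a conspecific male, against 25.8 ± 1.55 CPM (SD, n = 6) in social controls, a log2 fold change of -0.11 (95% interval -0.3 to 0.09). The intervals did not reach the benthic change of -0.55, but that gene had the smallest p in the benthic comparison, so its change there may be overstated. The difference in response, benthic minus limnetic, was -0.57 for the Paxton limnetic and -0.45 for the Priest limnetic females, and neither passed after adjustment over all genes (edgeR adjusted p = 0.532 and 0.743). For ENSGACG00000019171, the limnetic log2 fold changes were -0.1 (95% interval -0.25 to 0.06, Paxton) and 0.01 (95% interval -0.16 to 0.17, Priest), and the differences in response of -0.36 and -0.46 did not pass either (edgeR adjusted p = 1 and 0.646). Across all 20011 genes, 0 passed for a response that differed between benthic and Paxton limnetic females (509 at an unadjusted p under 0.05) and 0 for benthic and Priest limnetic females (1180).

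**Figure D1:**
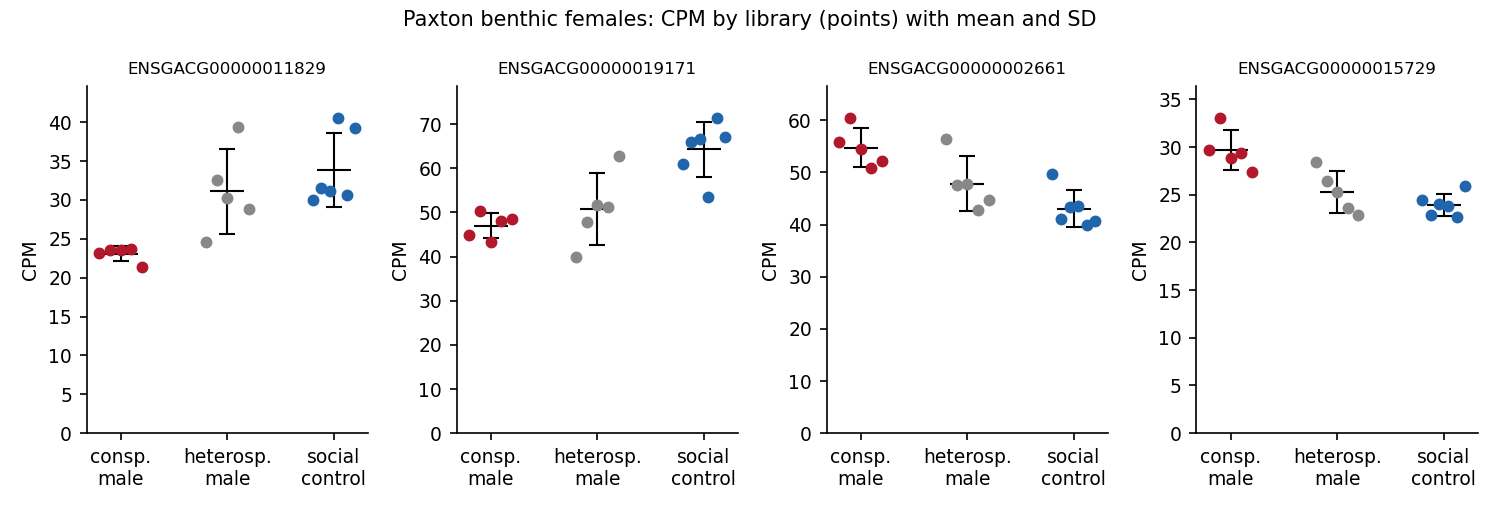
CPM (vertical axes, from 0) of the called genes ENSGACG00000011829 and ENSGACG00000019171 and of ENSGACG00000002661 and ENSGACG00000015729, which were not called, in Paxton benthic females. Each point is 1 library, ordered by trial within its group, with the mean and SD in black, for conspecific males (n = 5), heterospecific males (n = 5) and the social control (n = 6). The conspecific and social control points do not overlap for any of the 4 genes, while the heterospecific points overlap the social control range for each of them.

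No gene was called higher with a conspecific male. The genes given next had the smallest p among the higher genes without overlap, so that their groups do not overlap was fixed by the choice. ENSGACG00000002661 had 55.8, 60.5, 54.5, 50.9 and 52.1 CPM in the conspecific females and 49.7, 41, 43.4, 43.5, 40 and 40.7 CPM in the social controls. The lowest conspecific female lay just above the highest social control, that of trial 39, which stood apart from the other controls. Its mean was 54.7 ± 3.74 CPM (SD, n = 5) with a conspecific male, against 43.1 ± 3.58 CPM (SD, n = 6) in social controls, with a log2 fold change of 0.35 (standard error 0.08, edgeR adjusted p = 0.322). DESeq2 called it (adjusted p = 0.0439), and so did edgeR without the control of trial 39 (adjusted p = 0.0767).

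ENSGACG00000015729 had 29.7, 33.1, 28.9, 29.4 and 27.4 CPM in the conspecific females and 24.5, 22.9, 24, 23.8, 22.7 and 25.9 CPM in the social controls. Its log2 fold change of 0.31 (standard error 0.08) did not pass (edgeR adjusted p = 0.661). In the limnetic females its log2 fold changes were 0.09 (95% interval -0.07 to 0.25, Paxton) and 0.05 (95% interval -0.12 to 0.22, Priest), and those of ENSGACG00000002661 were 0.11 (95% interval -0.04 to 0.26, Paxton) and -0.01 (95% interval -0.16 to 0.15, Priest).

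Beyond the called genes, 1164 genes had an unadjusted p under 0.05, 505 with a higher and 659 with a lower estimate with a conspecific male. These are 5.82% of the genes tested, near the share of 5% that a test with no effect would give, so they are not a count of changed genes. Conspecific and control CPM did not overlap in 65 genes with lower values in the conspecific females (0.325% of those tested) and in 39 with higher values (0.195%). With no effect of treatment, the chance of no overlap in a given direction is 0.00216 per gene for groups of this size. The share of higher genes was below that chance and the share of lower genes above it. Whether the lower share exceeds chance was not tested, and neither list is a count of changed genes. Among the lower ones the log2 fold change ran from -1.71 to -0.12 with a median of -0.38, and among the higher ones from 0.10 to 1.15 with a median of 0.31. The median size over all genes tested was 0.12. Apart from the 2 called genes, the genes without overlap all had an adjusted p of at least 0.322 in edgeR.

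Among the genes without overlap and with a mean of at least 1 CPM, the 10 lower ones with the smallest p had log2 fold changes from -1.05 to -0.28, and the 10 higher ones from 0.26 to 0.53. Thus the more even differences were modest in size, and the lower ones were on the whole larger than the higher ones. Differences of at least 2-fold between the group means at 1 CPM or more were found in 59 genes, 19 higher and 40 lower with a conspecific male. Of these, 3 were without overlap, 0 were called, and 7 had over 50% of their summed CPM in a single library. Most of the large differences thus had values that overlapped between treatments, as the plot of fold change against p shows. This holds for nearly all genes tested, of which 0.325% were lower and 0.195% higher without overlap. It is not particular to the large differences.

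**Figure D2:**
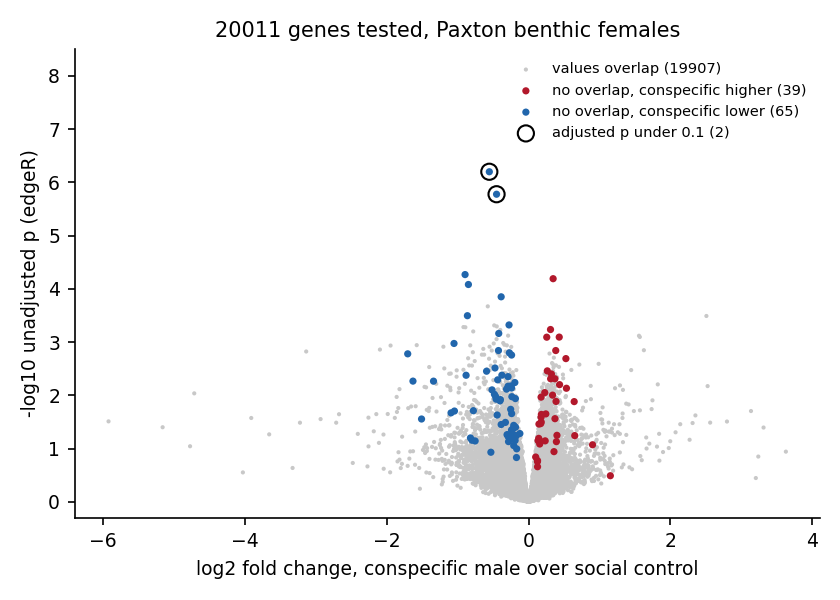
Each point is 1 of the 20011 genes tested, by log2 fold change with a conspecific male over the social control (horizontal) and -log10 of the unadjusted edgeR p (vertical). Coloured points are the 39 genes higher and the 65 lower with a conspecific male whose values did not overlap, and circles mark the 2 genes with an adjusted p under 0.1, both on the lower side.

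The same genes were looked up in the limnetic females, whose libraries entered neither benthic group mean. Of the 65 genes lower without overlap in benthic females, the conspecific estimate was lower in 51 in Paxton limnetic females (78.5%, against 49% of all genes) and in 41 in Priest limnetic females (63.1%, against 51.3%). Of the 39 higher ones, 33 (84.6%, against 51%) had a higher estimate in Paxton limnetic females and 16 (41%, against 48.7%) in Priest limnetic females. Few of these estimates were large against their error, as an unadjusted p under 0.05 in the benthic direction was found for 3 of them in the Paxton and 0 in the Priest fish, and in the opposite direction for 1 in each. Over all genes, in either direction, 2.85% had such a p in the Paxton and 4.66% in the Priest limnetic fish. Genes are not independent of each other, so the shares are a description. Over all genes, the 2 called by edgeR in benthic females stood beside 15 (0.075%) in the Paxton limnetic and 4 (0.02%) in the Priest limnetic fish for conspecific males over the social control, and whether these numbers differ was not tested.

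The number of calls varied with the tool, with the use of sample quality weights and with the libraries in the fit. DESeq2 called 7 genes, 2 higher and 5 lower, with both genes called by edgeR among the lower ones. Of its 7, 1 higher and 1 lower gene had group means of at most 0.046 CPM and counts in few libraries. The others were ENSGACG00000002661 and a pair of lower genes with 32.8 and 63.5 CPM in conspecific females, against 61 and 114 CPM in the social controls (DESeq2 adjusted p = 0.0397 and 0.0453). limma-voom with sample quality weights called 449 genes, 232 higher and 217 lower. Of the 449, 304 had a log2 fold change under 0.5 in size and 35 were without overlap. Over all genes tested, 0.325% were lower and 0.195% higher without overlap, a smaller share. Its weights were 0.446 and 0.657 for the conspecific libraries of trials 34 and 43 and 0.434 for the control of trial 39, against 1.42 to 2.22 for the other conspecific libraries. Of the other controls, that of trial 82 had 0.664 and the rest had 0.936 to 1.93. Without weights, a fit added after seeing the data, limma-voom called 2 genes, the same 2 as edgeR. In a fit over the 11 libraries alone, edgeR called 0 genes (1141 at an unadjusted p under 0.05). The log2 fold changes there were -0.55 for ENSGACG00000011829 (edgeR adjusted p = 0.723) and -0.44 for ENSGACG00000019171 (edgeR adjusted p = 0.811). The 2 calls were thus not made without the libraries of the other groups. That fit took the spread, the filter (19278 genes tested) and the scaling from the 11 libraries, and their parts in this were not tested.

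Trial number ran with treatment, as 5 of the 6 social controls came from trial 82 or later while 4 of the 5 conspecific females came from trial 67 or earlier. With trial number as a covariate, both genes stayed called, with log2 fold changes of -0.53 for ENSGACG00000011829 (edgeR adjusted p = 0.0353) and -0.42 for ENSGACG00000019171 (edgeR adjusted p = 0.0564). That slope was shared by all groups, so a trend particular to benthic fish would remain. In the 16 benthic libraries, a fit added after seeing the data, the covariate gave -0.48 and -0.36 (edgeR adjusted p = 0.998 for both). Without it they were -0.54 and -0.44 (edgeR adjusted p = 0.748 for both). In the fit on all groups without the benthic conspecific and control trials before 60, the log2 fold changes were -0.59 and -0.47. Neither passed (edgeR adjusted p = 0.16 and 0.284), with 3 conspecific and 5 control libraries left. Leaving out each library in turn, ENSGACG00000011829 lost its call without the conspecific female of trial 64 (edgeR adjusted p = 0.116). ENSGACG00000019171 lost it without the conspecific females of trials 34 or 64 or the control of trial 89 (edgeR adjusted p = 0.154, 0.393 and 0.105).

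The main axes of variation among the 11 brains did not separate the treatments. A principal component (PC) analysis of log2 CPM put 21.2%, 14.8% and 12.2% of the variance on the first 3 PCs. The difference in mean score, conspecific minus social control, was 16.1 on PC1 (two-sided exact permutation test of the libraries, p = 0.329), 10.1 on PC2 (exact permutation p = 0.502) and 19.6 on PC3 (exact permutation p = 0.121), and none passed after adjustment over the 3. The sign of a PC is arbitrary and was set so that the conspecific mean is the higher, so the direction of these differences carries no information. On PC3 the conspecific females averaged 10.7 ± 22 (SD, n = 5) and the social controls -8.93 ± 15.5 (SD, n = 6).

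The conspecific females of trials 34 and 43 lay far apart on PC1 (scores of -32.4 and 44.3) and on PC3 (43 and -18.2). On PC2 they lay at the same end, with scores of 24.2 and 48.4, the highest of the 11 libraries. The conspecific females of trials 64, 67 and 88 lay closer together. Among the social controls, that of trial 39 scored 19.5 on PC3, where the other 5 scored between -23.7 and -4.2. Without it, and with the PCs computed anew, 1 of the first 3 separated the treatments (smallest exact permutation p adjusted over the 3 PCs = 0.0476). That PC need not be the PC3 described here. The females of trials 34, 39 and 43 were also the earliest of the 11, and the 3 with the lowest voom weights. The late control of trial 82 had nearly the same weight (0.664) as the female of trial 43 (0.657). Trial dates were not given, and the part of date, handling or the fish themselves in this was not tested.

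**Figure D3:**
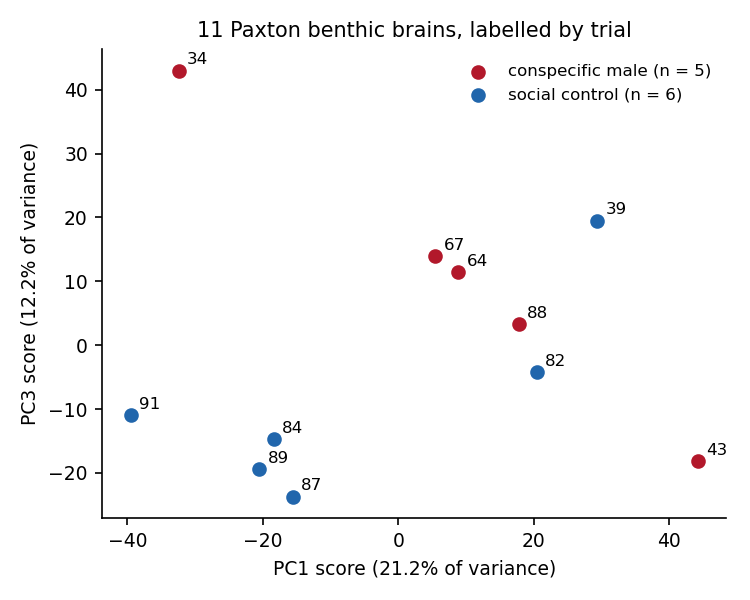
Scores of the 11 libraries on PC1 (horizontal, 21.2% of variance) and PC3 (vertical, 12.2%), numbered by trial, for conspecific males (red, n = 5) and the social control (blue, n = 6). On these axes the conspecific libraries of trials 34 and 43 lie farthest apart, and the control of trial 39 lies above the other controls on PC3. PC2 (14.8% of variance), where trials 34 and 43 both scored high, is not drawn.

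Genes whose expression varies together across brains were grouped into co-expression modules, over 51 libraries and without use of the treatment. Each module is summarised by its eigengene, the first PC of its genes, which has no unit and rises with their expression. The network gave 13 modules of 30 to 4085 genes, holding 10197 of 19618 genes. Eigengenes were higher with a conspecific male in 4 modules and lower in 9. In 3 modules the difference had an unadjusted p under 0.05 in the two-sided exact permutation test, whose smallest possible p is 0.00433, and in 0 was the p adjusted over the 13 under 0.05 (smallest adjusted p = 0.188). Neither ENSGACG00000011829 nor ENSGACG00000019171 fell in a module, and ENSGACG00000002661 belonged to module 1, the largest.

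**Figure D4:**
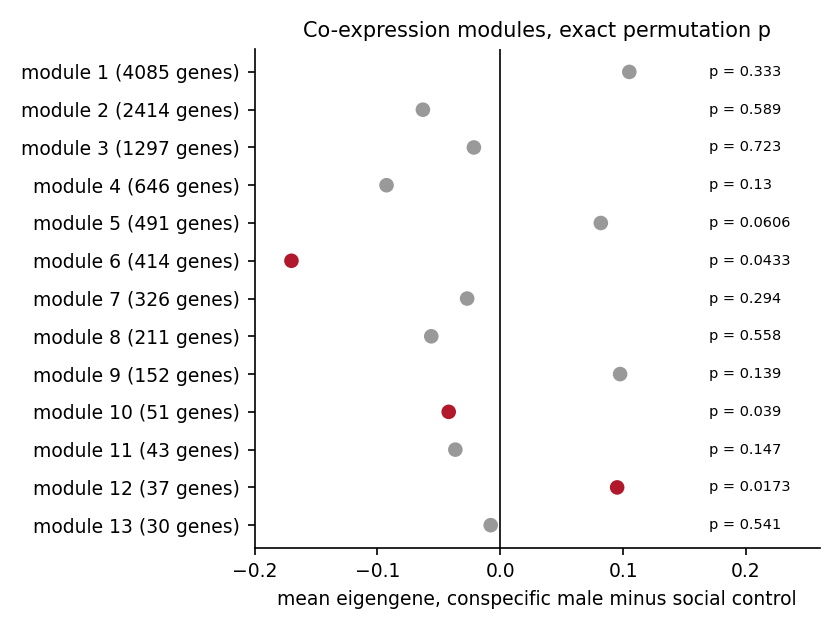
Difference in mean eigengene, conspecific male minus social control (horizontal, no unit), for the 13 modules, with the number of genes and the unadjusted two-sided exact permutation p of each. Red points are modules 6, 10 and 12, with exact permutation p = 0.0433, 0.039 and 0.0173, none of which passed after adjustment.

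Module 12, of 37 genes, had the smallest p. Its eigengene was -0.0522, -0.132, -0.126, -0.0597 and -0.0972 in the conspecific females of trials 34, 43, 64, 67 and 88, and -0.192, -0.203, -0.24, -0.12, -0.239 and -0.136 in the social controls of trials 39, 82, 84, 87, 89 and 91. A single control, that of trial 87, lay within the conspecific range. The means were -0.0934 ± 0.0367 (SD, n = 5) with a conspecific male, against -0.189 ± 0.0507 (SD, n = 6) in social controls, a difference of 0.0951 (two-sided exact permutation p = 0.0173, adjusted p = 0.188).

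The genes of module 12 were low to moderate in level, with a median of 3.37 CPM and a range from 0.719 to 186 CPM. Of the 37, 35 had a higher estimate with a conspecific male, with a median log2 fold change of 0.34, against -0.02 over all genes tested. Genes of a module vary together by construction, so this count largely restates the eigengene difference and is no separate support. Of single genes, 2 had an unadjusted p under 0.05 (5.41%, against 5.82% of all genes) and 0 were called. A single gene, 1 of the 37 (2.7%), was higher without overlap, against 0.195% of all genes tested. As a median over its genes, relative to the mean of the social controls, the module's log2 level was 0.44, 0.24, 0.23, 0.42 and 0.32 in the conspecific females and between -0.17 and 0.26 in the controls. All 5 conspecific females thus lay above the control mean, and the control of trial 87 reached into their range.

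With trial number in a limma model the difference for module 12 was 0.0956 (adjusted p = 0.211), against 0.0951 (adjusted p = 0.0918) in the limma model without it. Leaving out each library in turn gave 0.0848 to 0.109, with exact permutation p from 0.00794 to 0.0381. Without the trials before 60, left out after seeing the data, it was 0.0934 (exact permutation p = 0.0714, 3 against 5 libraries). Females with a heterospecific male had a mean of -0.0344 ± 0.0958 (SD, n = 5), which was also above the same controls, by 0.154 (exact permutation p = 0.00433, unadjusted). The module was singled out by the values of these same controls, so this p is not independent of the conspecific comparison. The lowest heterospecific value, -0.119 in trial 85, lay barely above the highest control, -0.12 in trial 87, and trial 31 had 0.121. In the limnetic females the difference with a conspecific male was 0.051 (Paxton, exact permutation p = 0.587) and 0.0472 (Priest, exact permutation p = 0.416).

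In module 6, of 414 genes, most genes had lower estimates with a conspecific male. Its eigengene averaged -0.069 ± 0.104 (SD, n = 5) with a conspecific male, against 0.101 ± 0.111 (SD, n = 6) in social controls, a difference of -0.17 (two-sided exact permutation p = 0.0433, adjusted p = 0.188). Of its genes, 407 had a lower estimate with a conspecific male, with a median log2 fold change of -0.21, and 106 had an unadjusted p under 0.05 (25.6%, against 5.82% of all genes), all 106 lower and 0 called. It held 15 of the 65 genes that were lower without overlap, 3.62% of its genes, against 0.325% of all genes tested. As its genes vary together by construction, these counts largely restate the eigengene difference, which did not pass, and are no separate support. Of the 39 genes higher without overlap, 19 belonged to module 1 (of its 4081 genes tested, against the 0.195% of all genes), whose eigengene difference had an exact permutation p of 0.333. The genes of module 6 were moderately expressed, with a median of 36.4 CPM.

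The eigengene of module 6 also rose with trial number in the conspecific females, and in each treatment it was lowest in the earliest trial. In the conspecific females of trials 34, 43, 64, 67 and 88 it was -0.212, -0.128, -0.0478, -0.012 and 0.0548, in that order. In the social controls it was -0.107 in trial 39 and between 0.101 and 0.211 in the 5 later trials, with no steady rise among these. The heterospecific females of trials 14, 31, 77, 85 and 90 had -0.187, -0.0447, 0.0408, 0.136 and -0.0234. The earliest trials were thus low in each treatment, though trial 39 was the only early one among the controls. The conspecific females were on the whole the earlier ones.

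With trial number in the limma model, the difference for module 6 was -0.0749 (adjusted p = 0.255), less than the -0.17 without it. Among trials after 60 alone, a setting added after seeing the data, it was -0.144 (exact permutation p = 0.0357, adjusted p = 0.232). This left 3 conspecific and 5 control libraries, and the conspecific values there all lay below the control values. The unadjusted p is thus the smallest that groups of this size allow. Leaving out each library in turn gave differences of -0.211 to -0.134, with exact permutation p from 0.00794 to 0.0952, under 0.05 in 2 of the 11 fits. In the limnetic females the difference was -0.103 (Paxton, exact permutation p = 0.268) and 0.0122 (Priest, exact permutation p = 0.926). Whether the response differs between populations was not tested for the modules.

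**Figure D5:**
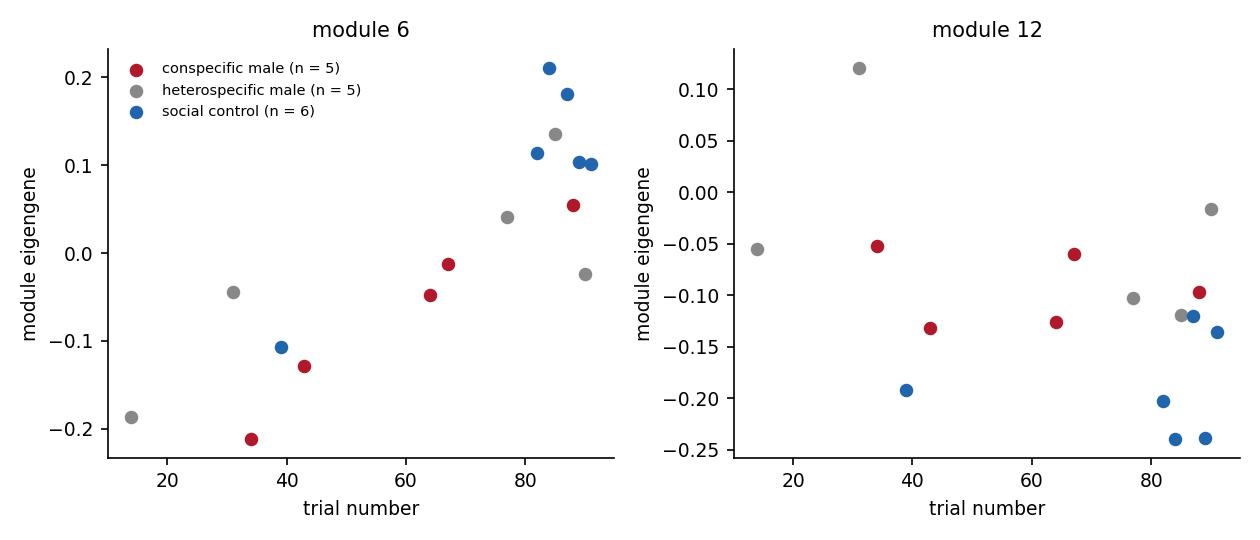
Eigengenes of module 6 and module 12 (vertical, no unit) against trial number (horizontal) in 16 Paxton benthic females, with a conspecific male (red, n = 5), a heterospecific male (grey, n = 5) or in the social control (blue, n = 6). In module 6 the lowest value belongs to the earliest trial in each treatment, while in module 12 the social control of trial 87 lies within the conspecific range and the other 5 lie below it, that of trial 91 by little.

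Module 10, of 51 genes with a median of 3.61 CPM, rested on fewer fish. Its eigengene was -0.0888, -0.115, -0.112, -0.0929 and -0.125 in the conspecific females, and -0.0721, -0.0634, -0.091, -0.106, 0.0373 and -0.0942 in the social controls, in the order of trials used above. The control of trial 89 stood far above the others. The difference was -0.042 (two-sided exact permutation p = 0.039, adjusted p = 0.188) and was -0.0215 without that control (exact permutation p = 0.0714). Of its genes, 47 had a lower estimate with a conspecific male, 0 of them with an unadjusted p under 0.05. This count too largely restates the eigengene difference.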

How the data were processed

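Whole-brain polyA RNA was sequenced as paired reads. Per the submitters' processing notes and the study's methods, the authors checked reads with FastQC 0.11.1, trimmed them with Trimmomatic 0.33, aligned them with BWA 0.7.7 to the Ensembl stickleback genome, and used SAMtools 1.2 and bedtools 2.23.0 to obtain reads per gene. The deposited table holds these raw counts. The table held 0 columns of other samples. Whether the counting used strand was not given in the sources used here.

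Counts were tested with edgeR 4.0.16 in R 4.3.3 (TMM, filterByExpr, quasi-likelihood, 51 libraries, 9 group means). Alternatives were DESeq2 1.42.0, limma 3.58.1, other size factors, no filter, other sets of libraries, trial number as a covariate and each library left out. PC analysis used log2 CPM with a prior count of 2. Modules came from the 90% most variable genes on DESeq2's regularized log scale (signed biweight correlation, power 9, at least 30 genes, merging distance 0.25). The scripts were tested on simulated data.

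Named genes were those called by edgeR and, of the 10 in each direction with the smallest p among genes without overlap at 1 CPM or more, as many as made 2 identifiers in each direction, since symbols were not paired with identifiers. For that reason further DESeq2 genes are given without identifiers, and module members and gene lists were not named. The groups and lists were chosen with earlier results of these data known. The libraries of trials 83 and 9 were left out except in 1 alternative. By the sample descriptions, no trial number occurred in more than 1 treatment, so no pairing was used. The conspecific library of trial 88 carries that number in its description but 89, the number of a social control, in its title, and the description was followed.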

Additional observations from a re-analysis of the deposited data

Results flagged for a closer look

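In groups of 5 or 6 libraries, a value was listed here where the gap between the lowest or highest library and its neighbour was large against the range of the group, by Dixon's 95% critical value. Of 29 groups of values examined, 4 met this, and chance alone marks about 1 in 20.

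For ENSGACG00000011829, the conspecific female of trial 88 had 21.4 CPM, where the other 4 had 23.2 to 23.7 CPM. This library lay on the side away from the social control, and without it the log2 fold change was -0.50. For ENSGACG00000002661, the social control of trial 39 had 49.7 CPM, where the next had 43.5 CPM. The eigengene of module 6 was -0.107 in the social control of trial 39, where the next lowest control had 0.101. Without this control the difference was -0.211 (exact permutation p = 0.00794, 5 against 5 libraries), while over all libraries left out in turn the p reached 0.0952 and was under 0.05 in 2 of 11 fits. The eigengene of module 10 was 0.0373 in the social control of trial 89, where the next highest control had -0.0634.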

How the results depend on the processing

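The number of genes called, 2 with edgeR, was 7 with DESeq2, 449 with limma-voom and sample quality weights, and 0 in fits of only the 11 libraries, only the 16 Paxton benthic libraries or without trials before 60. It ranged from 0 to 3 with each library left out, with 0 without the conspecific library of trial 64 and 1 without that of trial 34 or the control of trial 89. Among alternatives chosen after seeing the data, it was 0 without the conspecific libraries of trials 34 and 43, 0 with trial number as a covariate in the 16 benthic libraries, and 922 or 82 with weighted limma-voom without the conspecific library of trial 34 or 43. The cause of these shifts was not tested. It was 2 or 3 with other size factors, no filter, all 53 libraries, trial number as a covariate and the stricter threshold of 0.05.

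Over 25 alternatives that leave the threshold at 0.1, ENSGACG00000011829 and ENSGACG00000019171 were lower in all 25, with an adjusted p under 0.1 in 19 and 17 and log2 fold changes of -0.59 to -0.47 and -0.49 to -0.36. ENSGACG00000002661 and ENSGACG00000015729 were higher in all 25 and passed in 5 and 2. The alternatives reuse the same fish, whose conspecific and control values did not overlap for any of these genes. Their directions were therefore all but fixed in advance and are no separate support. The count of PCs that separated the treatments was 0, and 0 to 1 with each library left out (1 without the control of trial 39). The count of modules at an unadjusted p under 0.05, 3, ranged from 1 to 4 with each library left out, with 1 without the conspecific library of trial 43 or 64 or the control of trial 89. It was 1 without trials before 60, left out after seeing the data. The count at an adjusted p under 0.05 was 0 in each module setting, with module 12 at an adjusted p of 0.0918 in limma without trial number. No paired analysis was possible because the treatments shared no trial number by the descriptions, and at most 1, 89, by the titles. Depth was alike in both groups, and the group means rest on 5 and 6 fish. The edgeR standard errors and intervals also draw on the spread within the other groups.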
